A study of Mus musculus with 12 samples.

Results

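The diet of a macrophage's donor and the presence of red blood cells (RBC) were crossed in this experiment, and what is described here is their interaction: how far the response to RBC differed between macrophages of mice on a high-fat diet and macrophages of mice on chow. All 12 of the 12 arrays of the series enter it. For each gene the interaction is the mean of both exposed high-fat groups minus the unexposed high-fat group, minus the same difference in chow macrophages. The same number is the change, with RBC, in the signed gap between high-fat and chow macrophages.

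The cells were peritoneal macrophages of C57BL/6 mice, drawn to the peritoneum with thioglycollate (an irritant broth) and washed out with saline. Mice entered the study at 6 weeks of age and ate a high-fat diet or chow for 12 weeks, and the cultures were then given RBC of high-fat-fed mice, RBC of chow-fed mice or no RBC. Transcripts were read on Affymetrix Mouse Gene ST arrays from whole cultures. The 6 groups had 2 arrays each, labelled as separate animals: high-fat macrophages with high-fat RBC (HHF), with chow RBC (HC) and without RBC (HNR), and chow macrophages with high-fat RBC (CHF), with chow RBC (CC) and without RBC (CNR). No genotype other than the strain was given, all animals received thioglycollate, and the dose and duration of RBC exposure are not given in the sources used here.

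Macrophages that engulf RBC break down hemoglobin and pass on its iron, a task of resident macrophages in spleen and liver that elicited peritoneal cells also perform in culture. Several transcriptional programs of macrophages recur below. Type I interferon signalling acts at interferon-stimulated response elements, NF-kB acts at kB sites of cytokine and chemokine genes, serum response factor acts at CArG boxes of contractile genes, and genes of cell division share CCAAT boxes and cell cycle homology regions.

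Values are log2 signals, differences are in log2 units ± SE from a limma fit to all 12 arrays, and a gene was called where its Benjamini-Hochberg adjusted p over the 19938 genes tested was below 0.05. A gap is high-fat minus chow macrophages, a response is with RBC minus without RBC, and a positive interaction means a response that was more positive in high-fat macrophages. Replicate arrays correlated at 0.994 (HNR) to 0.997, and the array medians lay between 5.24 and 5.31. The macrophage markers (11 of 12 names measured) had mean signals of 9.35 to 9.38 with RBC and 9.13 to 9.14 without in high-fat macrophages, and 9.6 to 9.66 with RBC and 9.59 to 9.61 without in chow macrophages, and the T and NK cell markers (10 of 12 measured) had mean signals of 3.91 to 4.20 on all arrays. With 2 arrays per group, the p values measure the spread between these arrays.

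The interaction was called for 1131 of 19938 genes (5.67%), of which 513 were positive (2.57%) and 618 negative (3.1%). Positive interactions were the larger: 24 of the 25 called genes with an interaction of at least 2 in size were positive, and 173 of 233 at a size of at least 1. The median size over the called genes was 0.69. Leaving out CNR array 2 reduced the count to 558, of which 311 were positive and 247 negative, and leaving out any other array left at least 803. Positive calls also outnumbered negative ones without HNR array 2, and the signs were nearly even without HHF array 1. The balance of signs therefore rests on single arrays. It also differed by kind of RBC, with 344 positive and 276 negative calls with high-fat RBC alone. With chow RBC alone 361 were positive and 457 negative.

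Most called interactions came with a called response of chow macrophages and none of high-fat macrophages. Of the 618 genes with a negative interaction, 543 rose with RBC in chow macrophages while the response of high-fat macrophages was not called. Of the 513 with a positive interaction, 343 fell with RBC in chow macrophages while the response of high-fat macrophages was not called. Called responses of opposite sign were also found: 61 genes rose in high-fat and fell in chow macrophages, and 5 fell in high-fat and rose in chow macrophages. A further 39 genes rose in high-fat macrophages alone by these calls, and 19 fell in them alone. Over all genes the response to RBC was called for 215 in high-fat macrophages (1.08%) and 2539 in chow macrophages (12.7%). The count in high-fat macrophages was 120 without HNR array 1, 652 without HNR array 2 and 141 without HC array 1, and that in chow macrophages was 1673 without CNR array 1 and 956 without CNR array 2. Across genes the responses of high-fat and chow macrophages, which share no array, correlated at 0.151.

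**Figure D1:**
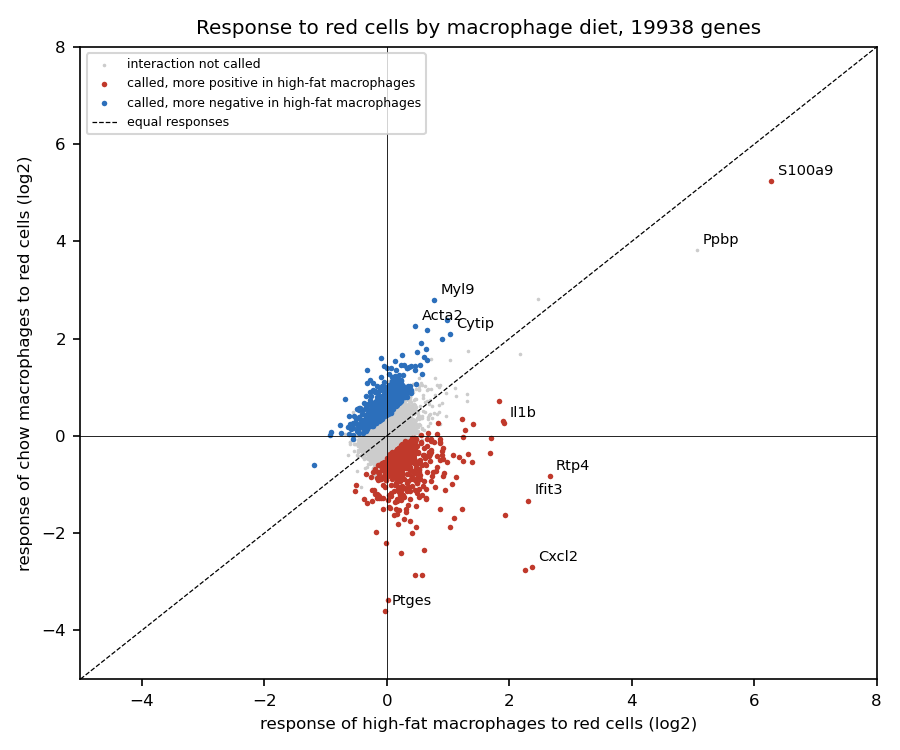
Response to RBC (with minus without, log2) in high-fat macrophages (horizontal axis) and chow macrophages (vertical axis); each point is a gene, red points have a called positive interaction, blue points a called negative interaction, and the dashed line marks equal responses. Cxcl2 lies far right and below (2.36 and -2.70), Ptges straight below zero, and Myl9 above the dashed line.

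The gap between macrophage diets was called for fewer genes with RBC than without. It was called for 967 genes with RBC (4.85%) and for 2780 without RBC (13.9%). The called interactions were sorted by these gaps, which are the parts of the interaction itself, so the classes describe and do not test. By these calls the gap shrank with RBC for 1031 of the 1131 genes (91.2%), widened for 37 (3.27%) and reversed for 19 (1.68%). For 44 neither gap was called (3.89%). A gap called only with RBC counted as widening, whatever its sign without RBC. Without CNR array 2 the gap shrank for 516 genes and neither gap was called for 13, and the last count was 17 to 26 without HC array 2, HHF array 1, CHF array 1 or CHF array 2. Among the shrinking genes the gap with RBC was still called for 221 and no longer called for 810. The gap stayed called for 143 of 472 genes with a positive interaction (30.3%), which were lower in high-fat macrophages without RBC, and for 78 of 559 with a negative interaction (14%). Of all 2780 genes with a called gap without RBC, 636 kept a called gap of the same sign with RBC. A further 19 had a called gap of the opposite sign and 2125 had no called gap. The interaction itself was called for 1052 of the 2780 (37.8%), so for the others a change of the gap was not called. The gap with RBC was called for 623 genes without HC array 2, 576 without CHF array 1 and 564 without CHF array 2, and the gap without RBC for 1600 without CNR array 2.

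For 920 of the 1131 called genes (81.3%) the unexposed chow group was the group whose mean lay farthest from the median of the 6 means, and for 157 (13.9%) it was the unexposed high-fat group. Over all genes tested these shares were 39.0% and 17.4%. The interaction gives an unexposed group more weight than an exposed group, which favours called genes with an unexposed group farthest out. The shares therefore describe the called genes and do not test. In the median shrinking gene with a positive interaction, high-fat macrophages were 0.15 below chow macrophages with RBC and 0.99 below without RBC. In the median shrinking gene with a negative interaction they were 0.06 above with RBC and 0.69 above without.

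**Figure D2:**
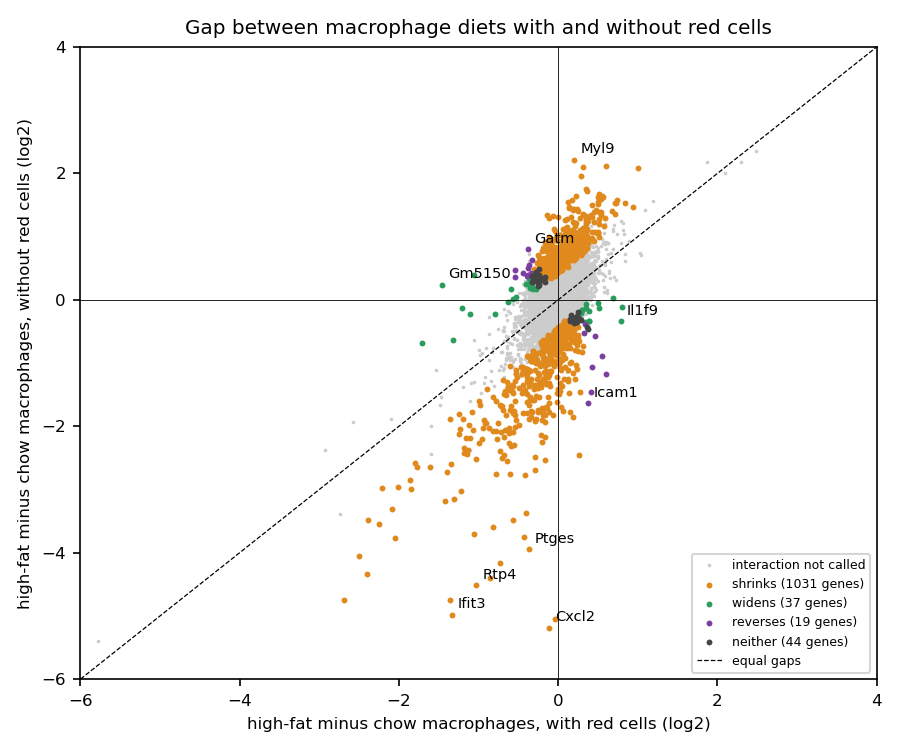
Gap between macrophage diets (high-fat minus chow, log2) with RBC (horizontal axis) and without RBC (vertical axis); each point is a gene, coloured by the class of its interaction, and the dashed line marks equal gaps. Most coloured points spread along the vertical axis, from -5.19 for Cxcl2 to 2.22 for Myl9 without RBC, and lie near zero on the horizontal one.

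Inflammatory mediators had the largest interactions. Of 27 measured NF-kB targets and inflammatory mediators, 24 had a called positive interaction and none a negative one, with a list median of 1.42 against 0.02 over all genes. In high-fat macrophages 8 of the 27 rose with RBC and 1 fell (0.878% and 0.201% of all genes), and in chow macrophages 1 rose and 24 fell (8.22% and 4.51% of all genes). With RBC 6 of the 27 were lower and 1 higher in high-fat than in chow macrophages (2.65% and 2.2% of all genes), and without RBC 25 were lower and none higher (5.82% and 8.12% of all genes). The mean signal over the list was 6.85 to 7.0 with RBC and 6.4 to 6.42 without in high-fat macrophages, and 7.11 to 7.24 with RBC and 8.36 to 8.39 without in chow macrophages.

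Cxcl2, a chemokine that attracts neutrophils, had the largest interaction of all genes tested. In high-fat macrophages, Cxcl2 was at 8.13 and 8.11 with high-fat RBC, 7.34 and 7.26 with chow RBC, and 5.04 and 5.65 without RBC. In chow macrophages, Cxcl2 was at 7.59 and 7.66 with high-fat RBC, 8.06 and 8.0 with chow RBC, and 10.46 and 10.6 without RBC. RBC-exposed arrays lay above unexposed arrays in high-fat macrophages and below them in chow macrophages, and the exposed arrays of the macrophage diets overlapped. The interaction was 5.07 ± 0.18 (limma adjusted p = 4.6e-09), made of a response of 2.36 ± 0.13 in high-fat and -2.7 ± 0.13 in chow macrophages. The gap was -0.12 ± 0.11 with RBC and -5.19 ± 0.15 without. Its promoter, from 250 bases before to 50 after the start of transcription (RefSeq, GRCm38.p6, chr5:90903649-90903948, plus strand), is shown because it holds the core of a kB site (GGG, NNN and TTCC in a row) 3 times, counting both strands, in capitals, with a pair of these matches overlapping.
Cxcl2: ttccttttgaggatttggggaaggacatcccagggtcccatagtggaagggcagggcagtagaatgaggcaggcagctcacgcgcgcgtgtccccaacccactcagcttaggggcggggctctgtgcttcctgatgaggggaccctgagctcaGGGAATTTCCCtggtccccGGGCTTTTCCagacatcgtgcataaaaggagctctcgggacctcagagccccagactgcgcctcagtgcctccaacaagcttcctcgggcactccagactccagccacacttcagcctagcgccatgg
Such a match was present in 8 of the 21 promoters found for the list (38.1%), in 53 of 417 promoters of genes with a positive interaction (12.7%), in 25 of 483 of those with a negative one (5.18%), and in 6.44% of the promoters of all genes tested. The promoters of Acod1, Icam1 and Ptges held no match in this window.

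Acod1 (also known as Irg1), which makes itaconate from an intermediate of the citric acid cycle, repeated the pattern of Cxcl2. In high-fat macrophages, Acod1 was at 8.39 and 8.64 with high-fat RBC, 8.53 and 8.21 with chow RBC, and 5.98 and 6.39 without RBC. In chow macrophages, Acod1 was at 8.24 and 8.82 with high-fat RBC, 8.48 and 8.39 with chow RBC, and 11.28 and 11.21 without RBC. The exposed arrays of both diets overlapped, between the low unexposed high-fat and the high unexposed chow arrays. Its interaction was 5.02 ± 0.22 (adjusted p = 1.4e-08).

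Ptges, the inducible prostaglandin E synthase, showed a response in chow macrophages without a called one in high-fat macrophages. In high-fat macrophages, Ptges was at 6.53 and 6.42 with high-fat RBC, 6.66 and 6.41 with chow RBC, and 6.34 and 6.73 without RBC. In chow macrophages, Ptges was at 6.81 and 6.74 with high-fat RBC, 6.87 and 7.1 with chow RBC, and 10.41 and 10.55 without RBC. The unexposed chow arrays stood alone at the top, and the high-fat arrays with and without RBC overlapped. The response was -0.03 ± 0.12 in high-fat macrophages (adjusted p = 0.96) and -3.6 ± 0.12 in chow macrophages (adjusted p = 5.6e-10), and the interaction was 3.58 ± 0.17. Ptgs2, the inducible cyclooxygenase one step before it, had an interaction of 2.05 ± 0.15 with the larger response in high-fat macrophages (1.69 ± 0.10, against -0.36 ± 0.10 in chow macrophages). Of 17 measured prostaglandin and leukotriene genes 3 had a called positive and 1 a called negative interaction, the last being Hpgds, the hematopoietic prostaglandin D synthase (-0.75 ± 0.16, not called without HNR array 2 or CNR array 2).

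Il1b, which encodes the cytokine interleukin-1 beta, had a called response in high-fat macrophages and none in chow macrophages. In high-fat macrophages, Il1b was at 6.34 and 6.16 with high-fat RBC, 5.19 and 5.2 with chow RBC, and 3.82 and 3.8 without RBC. In chow macrophages, Il1b was at 6.28 and 5.78 with high-fat RBC, 5.67 and 5.89 with chow RBC, and 5.77 and 5.51 without RBC. Exposed high-fat arrays lay above unexposed ones, while in chow macrophages exposed and unexposed arrays overlapped. Its response was 1.91 ± 0.13 in high-fat macrophages (adjusted p = 1.4e-06) and 0.27 ± 0.13 in chow macrophages (adjusted p = 0.19), and the interaction 1.64 ± 0.18 (adjusted p = 8.6e-05). Tnf, the tumour necrosis factor gene, had an interaction of 2.0 ± 0.13, with a response of 0.29 ± 0.09 in high-fat macrophages (adjusted p = 0.24) and -1.72 ± 0.09 in chow macrophages. Traf1, an adaptor of tumour necrosis factor receptors, had an interaction of 2.4 ± 0.14.

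Among the 22 measured chemokines 10 had a called positive and 1 a called negative interaction (median 0.69). The list shares Cxcl1, Cxcl2, Cxcl3, Ccl3, Ccl4 and Ccl5 with the NF-kB list and Cxcl10 with the interferon list. Cxcl3, another neutrophil attractant, had an interaction of 3.39 ± 0.26. Ccl3 and Ccl4, which recruit monocytes and T cells, had interactions of 1.61 ± 0.11 and 1.32 ± 0.15, and both rose in high-fat macrophages (0.59 and 0.51) and fell in chow macrophages (-1.02 and -0.82). Ccl5, a T cell attractant, kept a gap of -2.69 ± 0.10 with RBC beside -4.75 ± 0.14 without, so its interaction of 2.05 ± 0.18 left high-fat macrophages far below chow macrophages in either state. Gpr84, a receptor for medium-chain fatty acids, and Hp, the hemoglobin-binding haptoglobin, were among the largest positive interactions outside the list (3.43 ± 0.14 and 2.96 ± 0.14).

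Of 15 measured Toll-like receptors and adaptors 6 had a called positive interaction and none a negative one (median 0.42), with 2 negative calls without CNR array 1 and 2 after quantile normalization. Tlr2, a receptor for bacterial lipoproteins, was the largest. In high-fat macrophages, Tlr2 was at 7.9 and 7.76 with high-fat RBC, 7.86 and 8.03 with chow RBC, and 6.88 and 6.45 without RBC. In chow macrophages, Tlr2 was at 7.6 and 7.44 with high-fat RBC, 7.63 and 7.81 with chow RBC, and 9.15 and 9.09 without RBC. The exposed arrays of the diets overlapped between the unexposed groups, and the interaction was 2.72 ± 0.17 (adjusted p = 3.5e-07). Cd14, a co-receptor for lipopolysaccharide, rose in high-fat macrophages (1.41 ± 0.12) and had a response of 0.24 ± 0.12 in chow macrophages (adjusted p = 0.2), with an interaction of 1.17 ± 0.17. Irak3, an inhibitor of Toll-like receptor signalling, had an interaction of 1.41 ± 0.15. Tlr1, Tlr9 and Myd88 were also called, but Tlr1 was not called without CNR array 1, Tlr9 without HNR array 2 or either CNR array, and Myd88 without any of 5 arrays in turn.

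Some neutrophil transcripts were higher with RBC in both macrophage diets. Cxcl2, Acod1 and Tlr2 were higher with RBC in high-fat macrophages and lower in chow macrophages. In high-fat macrophages 6 of the 14 measured neutrophil markers rose and none fell (0.878% and 0.201% of all genes). Their median response was 0.34. In chow macrophages 5 rose and 1 fell (8.22% and 4.51% of all genes), with a median response of 0.05. In each diet 8 were not called. The mean signal over the 14 measured of 15 neutrophil markers was 5.98 to 6.29 with RBC and 5.1 to 5.19 without in high-fat macrophages, and 6.11 to 6.23 with RBC and 5.52 without in chow macrophages. The interaction was called positive for 4 of the 14 and negative for 1 (2.57% and 3.1% of all genes), the collagenase gene Mmp8. S100a9, a calcium-binding protein of neutrophils, rose by 6.28 ± 0.12 in high-fat and 5.24 ± 0.12 in chow macrophages, with an interaction of 1.04 ± 0.17. Lcn2, lipocalin-2, had an interaction of 1.59 ± 0.16 with responses of 1.9 in high-fat and 0.31 in chow macrophages, the last with an adjusted p of 0.079. Csf3r, the granulocyte colony-stimulating factor receptor, had an interaction of 0.93 ± 0.14 and Mmp9, gelatinase B, one of 0.94 ± 0.15. Cxcr2 and S100a8 rose in both diets without a called interaction, with 95% intervals of the interaction of -0.50 to 0.17 and -0.38 to 0.31. The part of neutrophil transcripts in the interactions of Cxcl2, Il1b and the other mediators was not tested.

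**Figure D3:**
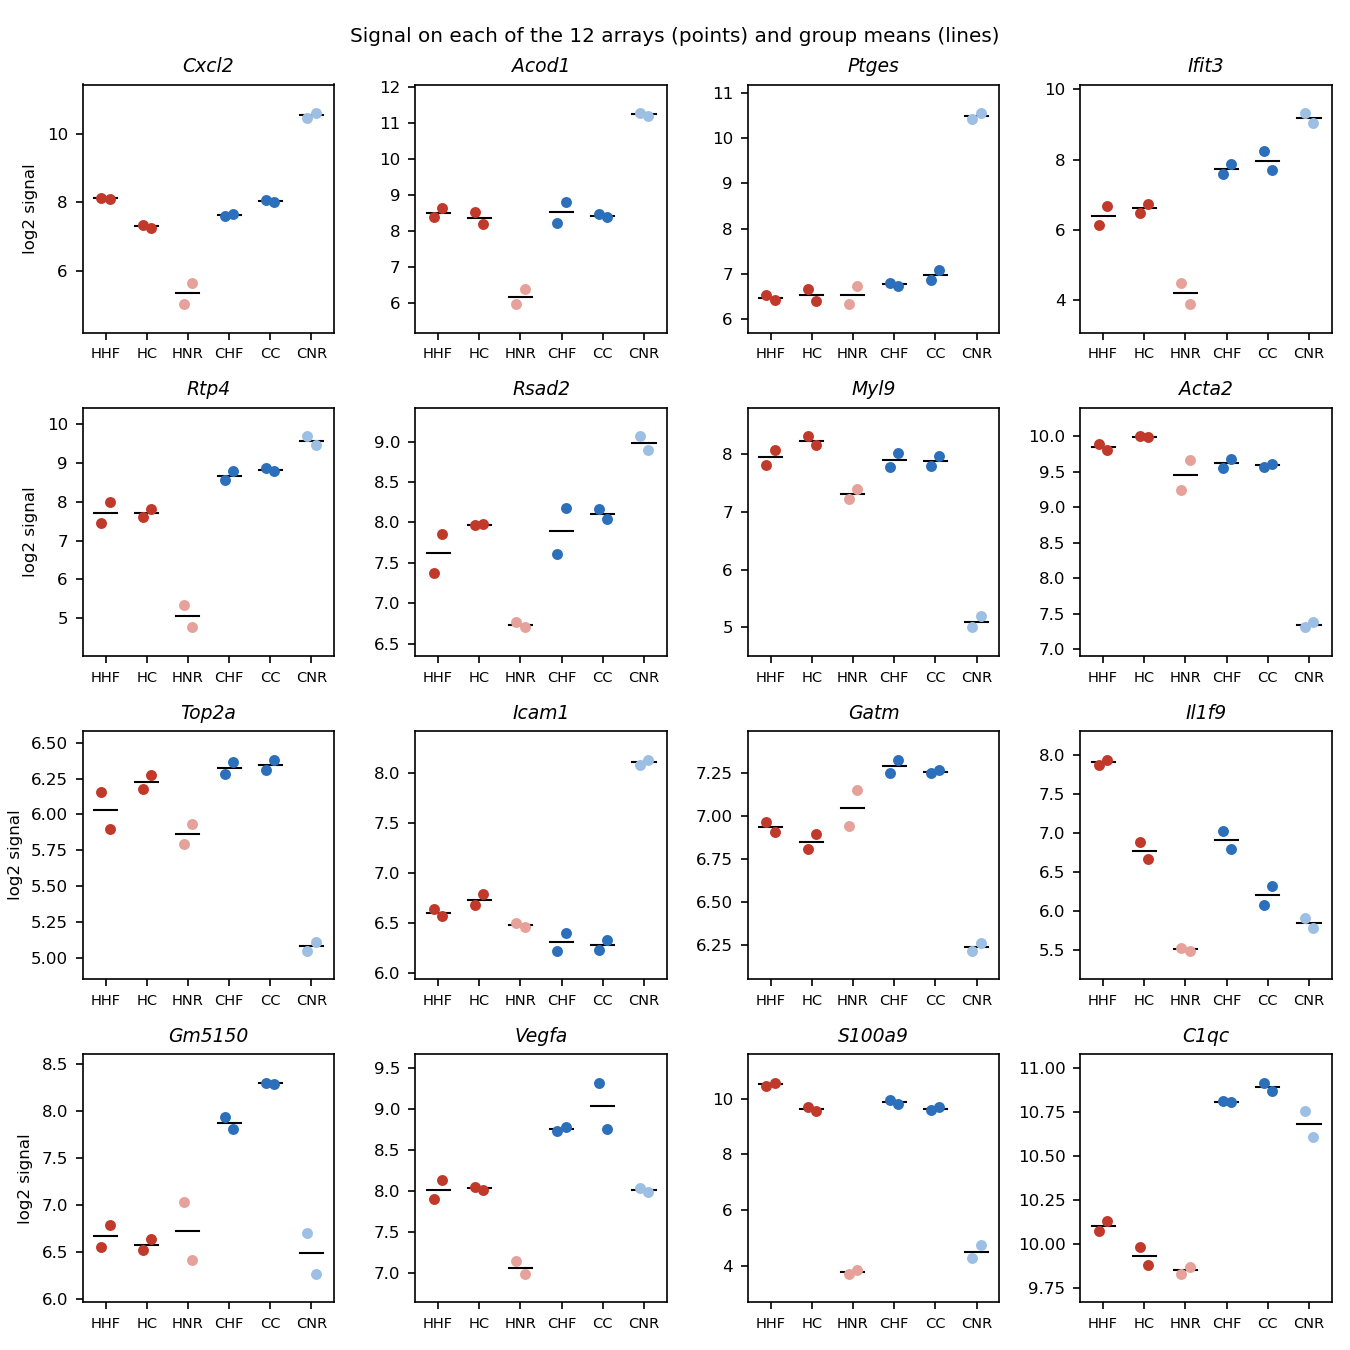
Log2 signal of 16 genes on each of the 12 arrays (points) with group means (lines); red points are high-fat and blue points chow macrophages, pale points are cultures without RBC, and each panel has its own vertical scale. In the upper panels the pale blue group (CNR) stands at the top and the pale red group (HNR) at or near the bottom, while in the panels of Myl9, Acta2 and Top2a CNR stands alone at the bottom.

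Interferon-stimulated genes were called throughout. All 26 measured of 30 interferon-stimulated genes had a called positive interaction, with a list median of 1.37, and all 26 had a shrinking gap. With RBC 16 of the 26 were lower in high-fat than in chow macrophages (2.65% of all genes), and without RBC all 26 (5.82%). RBC raised 17 of them in high-fat macrophages (0.878% of all genes) and lowered 23 in chow macrophages (4.51%). The interaction was called for 22 of the 26 with high-fat RBC alone and for all 26 with chow RBC alone. Between 24 and 26 stayed called when any array was left out.

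Ifit3, an interferon-induced protein with tetratricopeptide repeats, had the lowest unexposed high-fat values of the list relative to chow. In high-fat macrophages, Ifit3 was at 6.14 and 6.67 with high-fat RBC, 6.49 and 6.74 with chow RBC, and 4.5 and 3.89 without RBC. In chow macrophages, Ifit3 was at 7.58 and 7.87 with high-fat RBC, 8.24 and 7.7 with chow RBC, and 9.32 and 9.04 without RBC. Each of the 4 combinations of diet and exposure occupied a range of its own. The interaction was 3.64 ± 0.27 (adjusted p = 2.6e-06), from responses of 2.31 ± 0.19 in high-fat and -1.33 ± 0.19 in chow macrophages. Unlike Cxcl2, Ifit3 kept a called gap with RBC, of -1.34 ± 0.16 beside -4.98 ± 0.22 without.

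Rtp4, a chaperone of receptors, responded more in high-fat macrophages. In high-fat macrophages, Rtp4 was at 7.45 and 8.0 with high-fat RBC, 7.61 and 7.81 with chow RBC, and 5.35 and 4.77 without RBC. In chow macrophages, Rtp4 was at 8.56 and 8.79 with high-fat RBC, 8.86 and 8.79 with chow RBC, and 9.69 and 9.45 without RBC. The exposed high-fat arrays lay well above the unexposed ones but below every chow array. Its interaction was 3.48 ± 0.23, with a response of 2.66 ± 0.17 in high-fat and -0.82 ± 0.17 in chow macrophages. Ifit1, which binds foreign RNA caps, had an interaction of 3.55 ± 0.24, and Rsad2, the antiviral protein viperin, one of 2.05 ± 0.21. For Rsad2 the exposed arrays of the diets overlapped, with a gap of -0.20 ± 0.12 with RBC (adjusted p = 0.46). Ifi205, of a family of nucleic acid sensors, had responses of 0.47 ± 0.10 in high-fat and -2.86 ± 0.10 in chow macrophages. Oas2, an RNA sensor that makes oligoadenylates, had an interaction of 1.37 ± 0.13.

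The promoters of Ifit1 (chr19:34640639-34640938, plus strand) and Ifit3 (chr19:34583279-34583578, plus strand), both RefSeq on GRCm38.p6, are shown because each holds 2 matches to the core of the interferon-stimulated response element (GAAA, NN and GAAA in a row) on the strand opposite to the one printed; the matches are in capitals.
Ifit1: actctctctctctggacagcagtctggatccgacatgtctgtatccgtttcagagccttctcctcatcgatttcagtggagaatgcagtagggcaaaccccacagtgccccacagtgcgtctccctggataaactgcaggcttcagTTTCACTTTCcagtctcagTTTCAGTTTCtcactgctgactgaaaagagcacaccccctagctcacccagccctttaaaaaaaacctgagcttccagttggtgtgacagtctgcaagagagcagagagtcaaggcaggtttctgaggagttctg
Ifit3: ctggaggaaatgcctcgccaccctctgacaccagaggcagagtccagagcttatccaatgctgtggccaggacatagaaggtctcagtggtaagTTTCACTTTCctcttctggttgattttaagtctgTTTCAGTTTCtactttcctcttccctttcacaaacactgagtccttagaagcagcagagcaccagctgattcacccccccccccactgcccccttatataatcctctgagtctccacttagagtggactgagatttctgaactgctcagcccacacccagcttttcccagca
The core was present in 12 of the 19 promoters found for the list (63.2%), in 42 of 417 promoters of genes with a positive interaction (10.1%), in 21 of 483 of those with a negative interaction (4.35%), and in 607 of 15614 promoters of all genes tested (3.89%). Motifs were searched on both strands, and a match describes the letters only.

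Guanylate-binding proteins and immunity-related GTPases, which interferon gamma induces and which attack intracellular pathogens, gave 4 called positive interactions among 8 measured of 16 names (median 0.78). Gbp5, which promotes inflammasome assembly, had an interaction of 2.14 ± 0.26, with a response of 0.39 ± 0.18 in high-fat macrophages (adjusted p = 0.48) and -1.76 ± 0.18 in chow macrophages. Gbp3 had 1.48 ± 0.24. Gbp7 (1.06 ± 0.23) and Irgm1 (1.23 ± 0.32) lost their calls without CNR array 1, Irgm1 without 7 other arrays in turn as well, and the count of 4 fell to 2 without CNR array 1.

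Genes of antigen presentation were lower in high-fat macrophages in both states: the gap was called for 8 of 12 measured members with RBC and for 7 without. Over all genes the shares called lower were 2.65% with RBC and 5.82% without. Of the 12 members 6 had a called positive interaction (median 0.68), and the count stayed at 6 when any array was left out. H2-Aa, an alpha chain of MHC class II, is an example. In high-fat macrophages, H2-Aa was at 8.52 and 8.59 with high-fat RBC, 8.37 and 8.15 with chow RBC, and 7.86 and 8.02 without RBC. In chow macrophages, H2-Aa was at 9.69 and 9.5 with high-fat RBC, 9.57 and 9.58 with chow RBC, and 10.43 and 10.29 without RBC. The diets did not overlap in either state, and the chow arrays were lower with RBC while the high-fat arrays were higher. The gap was -1.18 ± 0.08 with RBC and -2.42 ± 0.11 without, and the interaction 1.24 ± 0.14 (adjusted p = 8.4e-05). H2-Ab1, H2-Eb1 and Cd74, the invariant chain, had interactions of 1.15 ± 0.18, 1.07 ± 0.20 and 1.25 ± 0.15. Cd40 and Cd86, which costimulate T cells, had 1.06 ± 0.13 and 1.13 ± 0.12.

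Some B cell markers moved with this list: the interaction was called positive for 5 of the 11 measured and negative for none (2.57% and 3.1% of all genes). The mean signal over the B cell markers was 4.54 to 4.62 with RBC and 4.5 to 4.58 without in high-fat macrophages, and 4.82 to 5.04 with RBC and 5.26 to 5.35 without in chow macrophages. Ms4a1 (CD20) had an interaction of 0.90 ± 0.17 and Cd79a, part of the B cell receptor, 1.03 ± 0.21; the count of 5 fell to 2 without CNR array 2 and to 3 without HC array 1, HC array 2, HHF array 2, HNR array 2, CC array 1 or CHF array 1. The 11 measured macrophage markers split: 4 had a called positive interaction and 1 a called negative one (2.57% and 3.1% of all genes), with a median of 0.05. In high-fat macrophages 2 of the 11 rose with RBC and none fell (0.878% and 0.201% of all genes). In chow macrophages 1 rose and 2 fell (8.22% and 4.51% of all genes). Those that fell were Adgre1 (F4/80) and Csf1r, the receptor of macrophage colony-stimulating factor, with interactions of 0.71 ± 0.13 and 0.69 ± 0.12. Gata6, a transcription factor of resident peritoneal macrophages, had -0.59 ± 0.14. This negative call was lost without HC array 2, HNR array 1, CC array 2, either CHF array or either CNR array, and after quantile normalization. None of 10 T and NK cell, 9 dendritic cell, 10 mast cell and basophil, 6 eosinophil or 6 adipocyte markers was called in limma on all 12 arrays, and leaving out an array called 1 T and NK cell marker (without HNR array 1), 1 mast cell and basophil marker (without HNR array 2) and 1 eosinophil marker (without CC array 1). In whole cultures fewer cells of a type and less RNA per cell cannot be told apart, and the part of B cell transcripts in the MHC class II interactions was not tested.

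**Figure D4:**
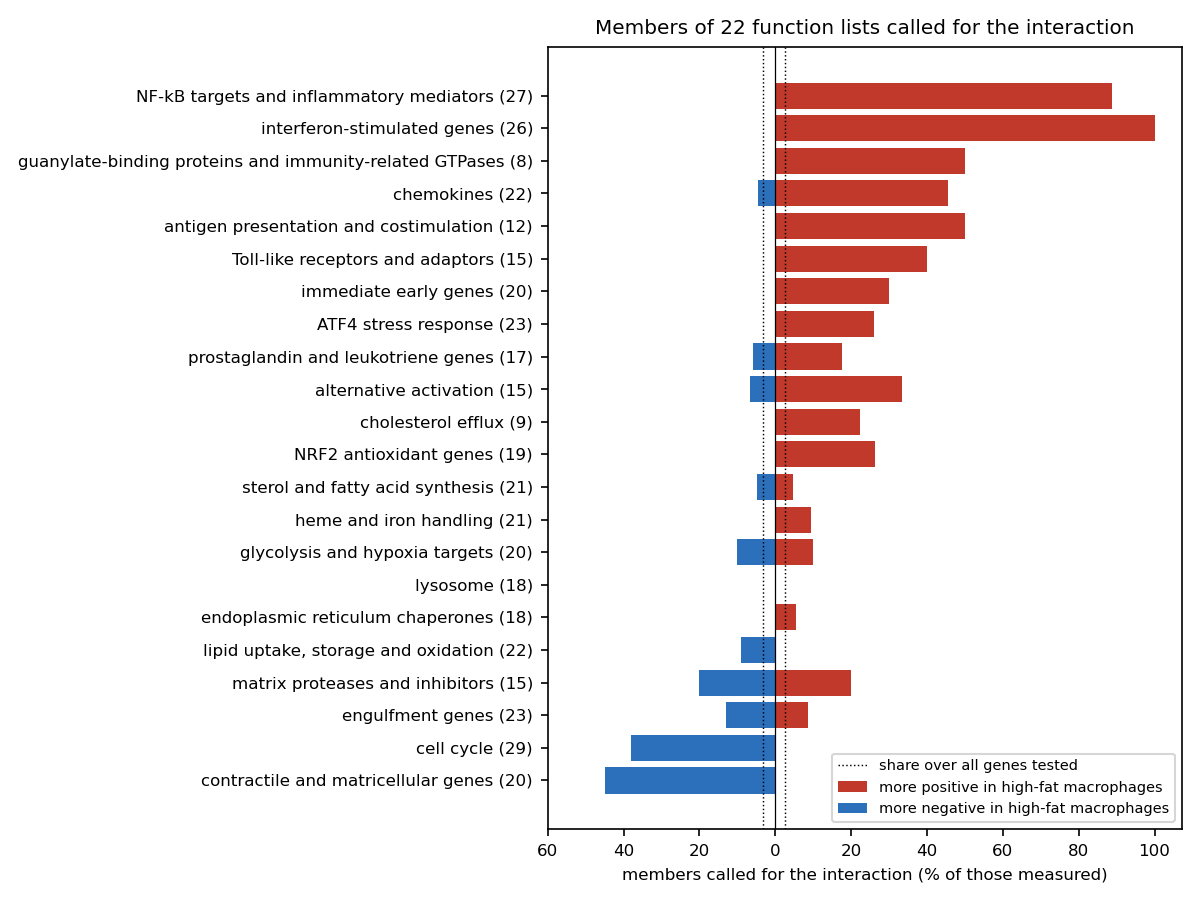
Members of 22 function lists called for the interaction, as a percentage of those measured (number in brackets), ordered by the list's median interaction; red bars to the right are positive, blue bars to the left negative, and dotted lines mark the shares over all genes (2.57% and 3.1%). The bar of interferon-stimulated genes covers all 26 members and that of NF-kB targets 24 of 27, both positive, and contractile and cell cycle genes are the longest on the negative side.

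Contractile and matricellular genes had the largest share of negative calls among the 22 function lists. Of 20 measured members 9 had a called negative interaction and none a positive one (median -0.59). In high-fat macrophages 7 rose with RBC (0.878% of all genes), and in chow macrophages 14 rose (8.22%). With RBC 4 were higher in high-fat than in chow macrophages (2.2% of all genes), and without RBC 11 (8.12%). The count lay between 9 and 12 when any array was left out. Mean signals over the list were 8.22 to 8.36 with RBC and 7.7 to 7.93 without in high-fat macrophages, and 8.05 to 8.18 with RBC and 6.87 to 6.92 without in chow macrophages.

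Myl9, a regulatory light chain of myosin, had the most negative interaction of all genes called. In high-fat macrophages, Myl9 was at 7.82 and 8.08 with high-fat RBC, 8.31 and 8.15 with chow RBC, and 7.23 and 7.41 without RBC. In chow macrophages, Myl9 was at 7.78 and 8.02 with high-fat RBC, 7.79 and 7.96 with chow RBC, and 5.0 and 5.2 without RBC. The unexposed chow arrays lay far below all others, and the exposed arrays of the diets overlapped. It rose in both diets, by 0.77 ± 0.11 in high-fat and 2.79 ± 0.11 in chow macrophages, with an interaction of -2.02 ± 0.16 (adjusted p = 4.0e-06). Its promoter (RefSeq, GRCm38.p6, chr2:156775214-156775513, plus strand) is shown for the CArG box in capitals.
Myl9: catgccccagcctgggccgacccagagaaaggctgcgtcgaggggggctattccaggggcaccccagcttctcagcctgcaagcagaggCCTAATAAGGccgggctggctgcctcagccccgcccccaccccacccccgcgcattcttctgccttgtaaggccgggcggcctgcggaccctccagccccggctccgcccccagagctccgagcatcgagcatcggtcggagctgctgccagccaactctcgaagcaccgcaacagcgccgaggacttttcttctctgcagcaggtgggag
A CArG box was found in 4 of the 16 promoters of the list (25%), in 8 of 483 promoters of genes with a negative interaction (1.66%), in 5 of 417 of those with a positive one (1.2%), and in 1.63% of the promoters of all genes tested. The search took a CArG box only as CC, 6 of A or T and GG in a row. For Acta2, Tpm2 and Ankrd1 this window held no match to that form. Forms with a G or C among the middle bases were not searched.

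Acta2, smooth muscle actin, had an interaction of -1.79 ± 0.15, with a response of 0.47 ± 0.11 in high-fat macrophages (adjusted p = 0.06) and 2.26 ± 0.11 in chow macrophages. Tagln, an actin-binding protein of smooth muscle, had -1.36 ± 0.14, Tpm2, a tropomyosin, -1.42 ± 0.18, and Actg2, enteric smooth muscle actin, -1.18 ± 0.15. Ccn2 (connective tissue growth factor) and Ankrd1, both known targets of YAP in several cell types, had -1.4 ± 0.19 and -1.52 ± 0.18. Ankrd1, like Tagln, kept a called gap with RBC (0.61 ± 0.10), whereas the gap of Acta2 with RBC was 0.31 ± 0.09 (adjusted p = 0.058).

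Other large negative interactions came from genes outside this list. Cmbl, a hydrolase, had -1.67 ± 0.16, Nfib, a transcription factor of the nuclear factor I family, -1.41 ± 0.21, and Bgn, the matrix proteoglycan biglycan, -1.41 ± 0.16. Each rose with RBC in chow macrophages, and their responses in high-fat macrophages were -0.32 ± 0.11, -0.32 ± 0.15 and 0.13 ± 0.11 with adjusted p values of 0.3, 0.45 and 0.75.

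Some markers of mesothelial cells and fibroblasts, which line and support the peritoneum and express contractile and collagen genes, also had negative interactions. In high-fat macrophages none of these markers rose with RBC and 1 fell (0.878% and 0.201% of all genes). In chow macrophages 4 rose and none fell (8.22% and 4.51% of all genes). With RBC none was higher and 2 were lower in high-fat than in chow macrophages (2.2% and 2.65% of all genes). Without RBC 3 were higher and none lower (8.12% and 5.82% of all genes). Of 12 measured 4 had a called negative interaction (3.1% of all genes, list median -0.22), a count that was lower without CNR array 1. Mean signals over these markers were 5.7 to 5.77 with RBC and 5.71 to 5.73 without in high-fat macrophages, and 5.73 to 5.88 with RBC and 5.54 to 5.63 without in chow macrophages. Col1a2, a collagen I chain, had -0.65 ± 0.11, with a rise of 0.80 ± 0.08 in chow macrophages. Pdgfra, a receptor of fibroblasts, had -0.65 ± 0.12 and fell in high-fat macrophages (-0.42 ± 0.09). Lrrn4, a mesothelial marker, had -0.33 ± 0.19 (95% interval -0.73 to 0.07). The part of these cells in the contractile interactions was not tested.

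Cell cycle genes gave 11 called negative interactions and no positive one among 29 measured (median -0.50). In high-fat macrophages the response was called for none of the 29 (1.08% of all genes), and in chow macrophages 20 rose with RBC (8.22%). With RBC no gap was called (4.85% of all genes), and without RBC 17 were higher in high-fat than in chow macrophages (8.12%). The count of 11 was 6 without CNR array 2 and 7 without HHF array 2.

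Top2a, topoisomerase II alpha of dividing cells, shows the pattern. In high-fat macrophages, Top2a was at 6.16 and 5.9 with high-fat RBC, 6.17 and 6.27 with chow RBC, and 5.79 and 5.93 without RBC. In chow macrophages, Top2a was at 6.28 and 6.37 with high-fat RBC, 6.31 and 6.38 with chow RBC, and 5.05 and 5.11 without RBC. The unexposed chow arrays stood far below the rest, and with RBC the high-fat arrays lay just below the chow arrays. Its response was 0.26 ± 0.09 in high-fat (adjusted p = 0.3) and 1.25 ± 0.09 in chow macrophages, and the interaction -0.99 ± 0.13 (adjusted p = 4.3e-04). Bub1, a kinase of the spindle checkpoint, had -1.49 ± 0.16, Cdk1, the mitotic kinase, -0.83 ± 0.14, and Ccna2, cyclin A2, -0.74 ± 0.13. The promoter of Top2a (RefSeq, GRCm38.p6, chr11:99024140-99024439, minus strand) is shown for its 6 CCAAT boxes on either strand, in capitals.
Top2a: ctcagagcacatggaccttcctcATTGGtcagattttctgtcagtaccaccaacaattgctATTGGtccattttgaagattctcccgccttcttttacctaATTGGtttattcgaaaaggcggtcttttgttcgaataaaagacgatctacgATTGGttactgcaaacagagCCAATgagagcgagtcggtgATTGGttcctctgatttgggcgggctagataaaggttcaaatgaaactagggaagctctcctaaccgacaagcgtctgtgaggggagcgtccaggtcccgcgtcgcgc
CCAAT was present in 22 of the 25 promoters found for the list (88.0%), in 44.1% of the promoters of genes with a negative interaction, in 36.9% of those with a positive one and in 41.7% of the promoters of all genes tested. TTTGAA, the core of the cell cycle homology region, was present in 15 of the 25 (60.0%), in 18.2% with a negative and 12.5% with a positive interaction, and in 17.3% of all genes tested.

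**Figure D5:**
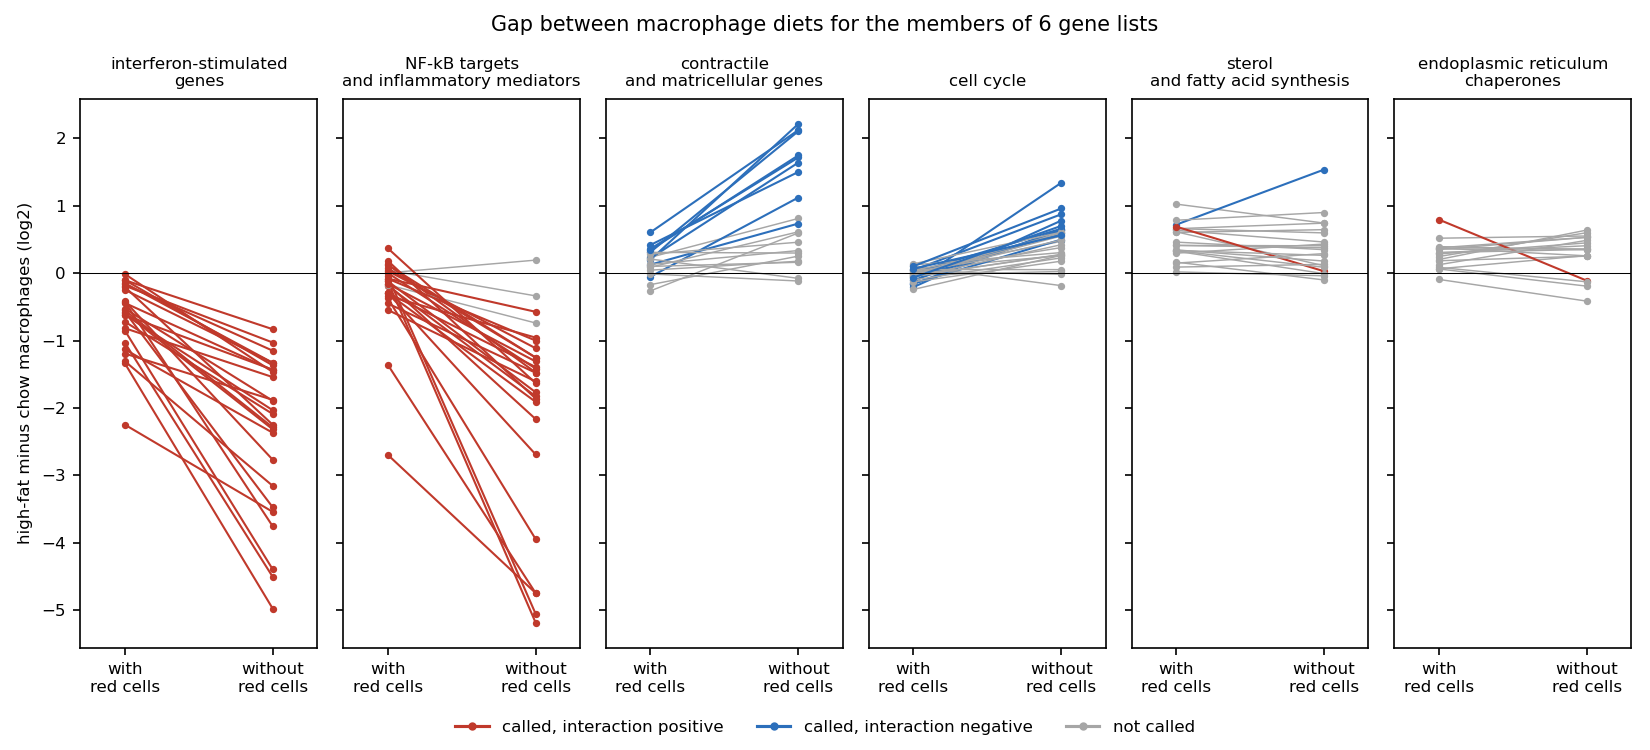
Gap between macrophage diets (high-fat minus chow, log2) with RBC (left point of each line) and without RBC (right point) for the measured members of 6 lists; red lines have a called positive, blue lines a called negative and grey lines no called interaction. Interferon and NF-kB members run from near or below zero with RBC to well below zero without, contractile and cell cycle members from near zero to above it, and most sterol and chaperone members run nearly level at or above zero.

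Stress and metabolic lists gave fewer calls. For these lists and those that follow, the shares of all genes called for the interaction are 2.57% positive and 3.1% negative. Of 23 ATF4 stress response genes 6 had a called positive interaction (median 0.24), a count that fell to 3 without CNR array 2. Slc7a11, the cystine transporter, was the largest of these (1.53 ± 0.13), rising in high-fat macrophages (0.80 ± 0.09) and falling in chow macrophages (-0.72 ± 0.09). Asns, asparagine synthetase, had 1.1 ± 0.12 and Nupr1, a stress-induced nuclear protein, 1.06 ± 0.12, both with a fall in chow macrophages (-1.34 and -1.38). Ddit3 (CHOP) had a called gap in either state and an interaction of -0.12 ± 0.12 (95% interval -0.37 to 0.14).

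NRF2 antioxidant genes gave 5 called positive interactions among 19, with a median of 0.11. Osgin1, an oxidative stress-induced growth inhibitor, had 1.06 ± 0.17, Nqo1, a quinone reductase, 0.87 ± 0.15, Abcc1, an exporter of glutathione conjugates, 0.89 ± 0.11, and Sqstm1, the autophagy receptor p62, 0.69 ± 0.12. Abca1, which exports cholesterol, had 0.77 ± 0.13: it rose by 0.82 ± 0.09 in high-fat macrophages, against 0.04 ± 0.09 in chow macrophages (adjusted p = 0.8). Of 9 cholesterol efflux genes 2 were called, both positive (median 0.11), and 1 stayed called when any of 9 arrays was left out. Of 22 genes of lipid uptake, storage and oxidation 2 were called, both negative (median -0.07), none without CNR array 2 and 1 when any of 5 other arrays was left out. Of 20 glycolysis and hypoxia genes 2 were positive and 2 negative (median -0.02), with no positive call without CNR array 2 and 1 without HNR array 1 or CHF array 1. For Fabp4, a fatty acid carrier, the interaction was -0.56 ± 0.12, no longer called without HNR array 1 or CNR array 2.

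Heme and iron genes gave 2 called positive interactions among 21, with a median of 0.01, no call without CNR array 2 and 1 when any of 5 other arrays was left out, and the lysosome list none among 18. Neither Hmox1, which degrades heme, nor Slc40a1, the iron exporter ferroportin, was called: their interactions were 0.25 ± 0.14 (95% interval -0.05 to 0.56) and 0.20 ± 0.19 (95% interval -0.20 to 0.61). Among 23 engulfment genes 2 were called positive and 3 negative; neither positive call held without CC array 2, CHF array 2 or either CNR array, 1 positive call was left without any of 5 other arrays, and 1 negative call without HNR array 2 or CNR array 1, against 5 without HNR array 1. Itgb5, an integrin chain that takes part in engulfment, had -0.75 ± 0.12 and rose in chow macrophages by 0.71 ± 0.09.

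Genes of alternative activation, the state induced by interleukin-4, split. Of 15 measured 5 had a called positive and 1 a called negative interaction, with 3 positive without CNR array 1. Tgm2, a transglutaminase, had 1.27 ± 0.18, Il4ra, the interleukin-4 receptor, 0.82 ± 0.11, and Irf4, a transcription factor downstream of that receptor, 0.92 ± 0.13. Mrc1, the mannose receptor, had -0.62 ± 0.12. Arg1, arginase 1, had -0.66 ± 0.19 with an adjusted p of 0.061. It was called with the replicate number as a block over all groups (adjusted p = 0.030) or within each macrophage diet (0.017), after quantile normalization, without the lowest genes, with an intensity trend and without CC array 2. Its gap was -2.58 ± 0.11 with RBC and -1.93 ± 0.15 without. Among 15 matrix proteases and inhibitors 3 were positive and 3 negative, the last count being 0 without CNR array 2 and 1 without HC array 2, HHF array 1, HNR array 2 or CHF array 1. Mmp19 and Mmp14, matrix metalloproteinases, had 1.93 ± 0.13 and 1.5 ± 0.16, and each rose in high-fat and fell in chow macrophages.

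Immediate early genes, which respond within minutes to stimuli, gave 6 called positive interactions among 20 (median 0.29), and 2 without CNR array 1. Fosl1, a subunit of AP-1, had 0.77 ± 0.15. Egr1, a zinc finger factor, had 0.73 ± 0.14. Its gap was 0.39 ± 0.08 with RBC and -0.33 ± 0.11 without (limma adjusted p = 0.064). Egr1 was sorted as widening because only its gap with RBC was called, although the gap changed sign at a similar size.

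Only 19 genes had called gaps of opposite sign, 8 with a positive and 11 with a negative interaction. Icam1, the adhesion molecule that binds leukocyte integrins, was the largest by size. In high-fat macrophages, Icam1 was at 6.63 and 6.57 with high-fat RBC, 6.68 and 6.79 with chow RBC, and 6.5 and 6.46 without RBC. In chow macrophages, Icam1 was at 6.22 and 6.4 with high-fat RBC, 6.23 and 6.33 with chow RBC, and 8.08 and 8.13 without RBC. With RBC the high-fat arrays lay above the chow arrays, and without RBC below them. The gap was 0.37 ± 0.07 with RBC (adjusted p = 0.0059) and -1.63 ± 0.10 without, and the interaction 2.0 ± 0.12 (adjusted p = 3.5e-07). Ralgds, an exchange factor for Ral GTPases, had 1.87 ± 0.13, Clec5a, a lectin receptor of myeloid cells, 1.49 ± 0.19, Gsap, the gamma-secretase activating protein, 1.44 ± 0.14, and Cd82, a tetraspanin, 1.03 ± 0.13.

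Hcar2, the receptor for nicotinic acid and beta-hydroxybutyrate, had called responses of opposite sign as well. In high-fat macrophages, Hcar2 was at 6.07 and 6.39 with high-fat RBC, 5.59 and 5.19 with chow RBC, and 4.61 and 4.52 without RBC. In chow macrophages, Hcar2 was at 5.62 and 5.4 with high-fat RBC, 4.75 and 5.08 with chow RBC, and 5.82 and 5.65 without RBC. Unexposed high-fat arrays were lowest and unexposed chow arrays lay inside the range of the exposed high-fat arrays. Its gap was 0.60 ± 0.11 with RBC and -1.17 ± 0.15 without.

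Among reversing genes with a negative interaction Gatm, which makes the precursor of creatine, was the largest. In high-fat macrophages, Gatm was at 6.97 and 6.91 with high-fat RBC, 6.81 and 6.9 with chow RBC, and 6.94 and 7.15 without RBC. In chow macrophages, Gatm was at 7.25 and 7.33 with high-fat RBC, 7.25 and 7.27 with chow RBC, and 6.22 and 6.27 without RBC. With RBC every high-fat array lay below every chow array, and without RBC above. The gap was -0.38 ± 0.07 with RBC and 0.80 ± 0.10 without, and the interaction -1.18 ± 0.12 (adjusted p = 4.9e-05). Arrdc3, an arrestin-domain protein, had -1.01 ± 0.15, Rgs2, a regulator of G protein signalling, -0.96 ± 0.12, Pde3b, a phosphodiesterase, -0.91 ± 0.13, Id3, an inhibitor of helix-loop-helix factors, -0.89 ± 0.14, and Fcgr4, an Fc receptor for IgG, -0.78 ± 0.14. At the median over reversing genes with a negative interaction the gap was -0.38 with RBC and 0.42 without, and over those with a positive one 0.42 with RBC and -0.98 without. Leaving out HC array 1, HC array 2, CHF array 1, CHF array 2, CNR array 1 or CNR array 2 left 9 to 12 of such genes.

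The gap was sorted as widening with RBC for 37 genes, 15 with a positive and 22 with a negative interaction. At the median over those with a positive interaction it was 0.38 with RBC and -0.17 without. Over those with a negative interaction it was -0.47 with RBC and 0.18 without, so the sign often differed. Il1f9, which encodes the cytokine interleukin-36 gamma, rose in both diets and more in high-fat macrophages. In high-fat macrophages, Il1f9 was at 7.88 and 7.94 with high-fat RBC, 6.88 and 6.67 with chow RBC, and 5.52 and 5.49 without RBC. In chow macrophages, Il1f9 was at 7.03 and 6.79 with high-fat RBC, 6.07 and 6.33 with chow RBC, and 5.91 and 5.78 without RBC. Within each kind of RBC the high-fat arrays lay above the chow arrays, and without RBC they lay slightly below. The gap was 0.79 ± 0.09 with RBC and -0.34 ± 0.12 without (adjusted p = 0.084), and the interaction 1.12 ± 0.15 (adjusted p = 3.6e-04). Herpud1, a component of endoplasmic reticulum-associated degradation, had 0.91 ± 0.16 and a gap of 0.80 ± 0.09 with RBC beside -0.11 ± 0.13 without.

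Widening with a negative interaction was led by Gm5150, a gene with no role given here. In high-fat macrophages, Gm5150 was at 6.55 and 6.79 with high-fat RBC, 6.52 and 6.64 with chow RBC, and 7.03 and 6.42 without RBC. In chow macrophages, Gm5150 was at 7.94 and 7.8 with high-fat RBC, 8.3 and 8.29 with chow RBC, and 6.7 and 6.27 without RBC. The exposed chow arrays stood above all others, and the unexposed arrays of the diets overlapped. The gap was -1.46 ± 0.13 with RBC and 0.24 ± 0.18 without, and the interaction -1.7 ± 0.22 (adjusted p = 3.0e-04). Cytip, a regulator of leukocyte adhesion, rose in both diets, by 1.03 ± 0.14 in high-fat and 2.1 ± 0.14 in chow macrophages. Ankrd37, a target of hypoxia-inducible factor, had -1.44 ± 0.24. Mmp8, the neutrophil collagenase, had -0.89 ± 0.18 (not called without CNR array 2), and Penk, the enkephalin precursor, -1.03 ± 0.23 (not called without HNR array 1 or CNR array 2). For 19 of the 37 widening genes the chow macrophages with chow RBC had the group mean farthest from the median, and for 2 the unexposed chow macrophages. The count of widening genes was 19 to 22 without HC array 2, HHF array 1, CHF array 1, CHF array 2 or CNR array 2.

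A further set of genes had like responses in both diets, or like gaps in both states. With called effects of the same sign and a 95% interval of the interaction within 0.5 of zero, 18 genes shared their response to RBC (17 rose, 1 fell) and 219 shared their diet gap (125 higher and 94 lower in high-fat macrophages). Vegfa, the vascular growth factor, was in both sets. In high-fat macrophages, Vegfa was at 7.91 and 8.13 with high-fat RBC, 8.05 and 8.02 with chow RBC, and 7.14 and 6.99 without RBC. In chow macrophages, Vegfa was at 8.73 and 8.78 with high-fat RBC, 9.32 and 8.76 with chow RBC, and 8.03 and 7.99 without RBC. Exposed arrays lay above unexposed arrays within each diet, and high-fat arrays below chow arrays in each state. The interaction was 0.08 ± 0.18 (95% interval -0.31 to 0.47). C1qc, a chain of complement C1q, had a gap of -0.83 ± 0.07 with RBC and -0.83 ± 0.09 without, with an interval of -0.25 to 0.25. Gdf3, a growth factor of the TGF-beta family, and Saa3, a serum amyloid protein, had gaps of -2.1 ± 0.08 and -1.49 ± 0.07 with RBC and -1.89 ± 0.11 and -1.66 ± 0.10 without.

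Of 21 measured sterol and fatty acid synthesis genes 15 were higher in high-fat than in chow macrophages with RBC and 10 without (2.2% and 8.12% of all genes). No member was called lower (2.65% and 5.82% of all genes). Their interaction was called positive for 1 and negative for 1. These were Mvd, an enzyme of the mevalonate pathway, at 0.66 ± 0.15 (not called without HNR array 1 or either CNR array), and Dhcr7, which makes cholesterol in the last step of its pathway, at -0.82 ± 0.15. Idi1, the isomerase of that pathway, had gaps of 1.03 ± 0.07 with RBC and 0.74 ± 0.10 without. Of 18 endoplasmic reticulum chaperones 9 were higher and none lower in high-fat macrophages with RBC (2.2% and 2.65% of all genes), and 10 were higher and 1 lower without RBC (8.12% and 5.82% of all genes), the last being Ero1a, an oxidase of protein disulfides (-0.41 ± 0.12). Of these 18 only Herpud1 had a called interaction.

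Globin probe sets, which carry the symbols of several globin genes and were tested apart, rose by 6.15 and 6.17 (alpha) and 7.38 and 7.44 (beta) in high-fat macrophages, and by 6.06 and 6.12 (alpha) and 7.44 and 7.56 (beta) in chow macrophages. Their interactions were 0.09 ± 0.28, 0.05 ± 0.24, -0.06 ± 0.23 and -0.12 ± 0.25. Of 14 other erythroid markers 1 rose with RBC in high-fat macrophages (0.878% of all genes). In chow macrophages 2 rose and 1 fell (8.22% and 4.51% of all genes). The median responses of these markers were 0.02 in high-fat and -0.06 in chow macrophages. None of the 14 had a called interaction in limma on all 12 arrays. Alas2, which starts heme synthesis in erythroid cells, was called positive without HC array 2, and Bpgm, which makes bisphosphoglycerate, negative without HC array 1 or CNR array 1. Ppbp, a platelet chemokine, had 1.24 ± 0.37 (adjusted p = 0.068) beside responses of 5.06 ± 0.26 in high-fat and 3.82 ± 0.26 in chow macrophages. Of 10 platelet markers 6 rose with RBC in high-fat and 5 in chow macrophages (0.878% and 8.22% of all genes), with median responses of 0.57 and 0.46. Their interaction was called positive for 1 and negative for 1 (2.57% and 3.1% of all genes), and neither call held without HNR array 2 or CNR array 1. The positive count was also 0 without HC array 2, HHF array 2, CC array 2 or CHF array 1, and 2 without HHF array 1.

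The kind of RBC made no called difference to the interaction. With high-fat RBC alone 620 genes were called (3.11%) and with chow RBC alone 818 (4.1%), from the same unexposed arrays. The count with high-fat RBC was 355 without CHF array 1, 348 without CHF array 2 and 381 without CNR array 2, and that with chow RBC was 519 without HC array 1, 418 without HC array 2, 528 without CC array 1 and 439 without CNR array 2. The direct test compares the effect of RBC kind between high-fat and chow macrophages, uses the 8 exposed arrays and called 0 genes in limma, with 718 at an unadjusted p below 0.05, and at most 1 with any array left out. It was 1.23 ± 0.21 for Cxcl2 (95% interval 0.77 to 1.68, adjusted p = 0.67), whose interaction was 5.68 with high-fat RBC and 4.45 with chow RBC. For Il1b it was 0.81 ± 0.21 (0.35 to 1.26), from 2.04 with high-fat RBC and 1.24 with chow RBC. For Acod1 it was 0.05 ± 0.25 (-0.50 to 0.59), for Ifit3 0.04 ± 0.32 (-0.64 to 0.72) and for Myl9 -0.31 ± 0.18 (-0.70 to 0.08).

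At the threshold, Zfp759 was the last gene called (-0.60 ± 0.17, adjusted p = 0.0499) and Mcm2, a DNA replication helicase subunit, the next one out (-0.51 ± 0.14, adjusted p = 0.0501). For the 76 called genes with several probe sets, 106 of 130 other probe sets had an interaction of the same sign, and across these the values correlated at 0.711.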

How the data were processed

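Peritoneal macrophage cultures of 6 groups were measured on 12 Affymetrix arrays; RNA was prepared with RNeasy, WTA-Ovation FFPE V2 and Encore biotin kits, per the labels' protocols. The authors deposited 1 log2 value per probe set and array, a scale read from the range of the values; the summarization and normalization were not given in the sources used here. Without detection calls the level over background is not known, and precision is limited by the number of arrays.

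Of 35557 probe sets 35556 had values and 21789 a single gene symbol; the brightest per gene left 19938 genes, without a filter. The 1621 probe sets with several symbols and the 12146 without a listed gene were tested apart. Group means were fitted to the 12 arrays (lmFit and eBayes of limma 3.58.1 under R 4.3.3, two-sided tests). On simulated data with 200 changed genes of 19938, the interaction was recovered for 98% at a log2 size of 1 and 16% at 0.5, with 7 false calls. Only the unexposed chow group was moved in it. Its noise was independent for each gene and array, so errors shared by the genes of an array were not covered. A gap was shrinking where it was called without RBC and not called, or called smaller with the same sign, with RBC; widening was the converse.

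The comparisons, the 22 function lists (420 of 450 names measured), the 11 marker lists (113 of 127) and the genes were chosen with earlier results of these data known. Function lists can share members, and their 420 measured names stand for 410 distinct genes. Named genes are, by rule, up to 10 per class and sign of the interaction, up to 6 per list by p, up to 8 of each shared pattern, 18 fixed genes and the genes at the threshold. Promoters of 300 bases came from a RefSeq table of GRCm38.p6 that covers 15614 of the tested genes. Alternatives were quantile normalization, a filter on the lowest 33.3% of genes, array weights, an intensity trend (robust eBayes), the replicate number as a block, the mean of probe sets, an adjusted p below 0.10, a gap size rule of 0.5 and each array left out.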

Additional observations from a re-analysis of the deposited data

Results flagged for a closer look

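The responses of high-fat and chow macrophages to RBC differed by a direct test for 1131 genes, for 620 with high-fat RBC alone and for 818 with chow RBC alone. The leading gene of each sign and class is repeated here for the size of this difference: Cxcl2 at 5.07 and Myl9 at -2.02 (gap shrinking), Icam1 at 2.00 and Gatm at -1.18 (gap reversing), and Il1f9 at 1.12 and Gm5150 at -1.70 (gap widening).

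Data outside the gene test also carried signal. A probe set listed for Hba-a2 and Hba-a1 was 6.15 higher with than without RBC in high-fat macrophages, and one listed for several Hbb genes 7.38 higher. The interaction was called for 15 of the 1621 probe sets with several symbols and for 27 of the 12146 with no listed gene.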

How the results depend on the processing

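The 251 named genes (224 after the filter on low genes) were refitted under another normalization, filter, trend, weights, block or probe set rule and without each array. None changed the sign of an interaction that was called in the main fit or in the setting. Changes of sign in genes called in neither were not counted. The adjusted p of 0.10 and the gap size rule were not applied to single genes. Between 0 and 43 lost their call per setting, most without CNR array 2, and 0 to 11 gained one, most with an intensity trend; the list counts with single arrays left out were added after seeing the data. The interaction was called for 835 genes with array weights to 1594 at an adjusted p below 0.10, with 1241 after quantile normalization, and for 558 to 1115 with an array left out (fewest without CNR array 2, most without HNR array 2). At an adjusted p below 0.10, 941 genes were called with high-fat RBC alone, 1282 with chow RBC alone, 336 for the response of high-fat and 3919 for that of chow macrophages, and 53 genes reversed, 75 widened and 76 had neither gap called. With array weights 101 genes were called for the response of high-fat macrophages. Reversing genes numbered 30 after quantile normalization, 30 without the lowest 33.3% of genes and 30 with an intensity trend, and a gap rule by size 0.5 gave 2 reversing, 17 widening and 239 with neither. With single arrays left out the ranges were 348 to 691 with high-fat RBC alone, 418 to 959 with chow RBC alone, 0 to 1 for the RBC kind by diet test, 564 to 1199 for the gap with RBC, 1600 to 2746 for that without, 120 to 652 for the response of high-fat and 956 to 3093 for that of chow macrophages, and 516 to 998 shrinking, 19 to 51 widening, 9 to 22 reversing and 13 to 55 with neither. Whether same-numbered cultures share a donor is not stated. Same-numbered arrays of different groups deviated together by correlations from -0.226 to 0.344 with mixed signs, the highest between HNR and HHF. These correlations cannot decide whether the samples are paired. The number as a block gave 1059 called genes over all groups and 1180 within each macrophage diet. In these cases the cause was not tested. Without detection calls, dim probe sets cannot be told from absent transcripts, and an interaction of 0.5 would often be missed.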
